A study of Mus musculus with 3 samples.

Results

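The cytosolic ribosomal protein genes encode the proteins of the large and the small subunit of the ribosome that translates nuclear messenger RNA. Members were the genes whose symbol has the form Rpl or Rps with a number, or is Rplp0, Rplp1, Rplp2 or Rpsa, and which had at least 1 probe set annotated with that symbol alone. The array gave 49 such genes of 18193 genes in all, 26 of the large and 23 of the small subunit, read by 105 probe sets. Each gene was represented by its brightest probe set, judged by the mean of its 3 intensities.

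Affymetrix mouse 430 2.0 arrays measured RNA of sorted CD8+ T cells, 1 array in each of 3 groups, to examine why T cells without the type II TGF-β receptor that carry the natural killer cell marker NK1.1 are harmful. The KO NK1.1+ group and the KO NK1.1− group came from Tgfbr2 fl/fl x CD4-Cre mice 15 to 17 days old, in which Cre under the Cd4 promoter deletes both floxed copies of the receptor gene in T cells. The control group came from Tgfbr2 fl/WT x CD4-Cre littermates, so control cells carried Cre too and had 1 floxed copy; their age is not stated separately. The labels leave the control gate unsettled, since the array's title and 1 passage of the design call the cells NK1.1− and another passage calls them total CD8+ cells. Nothing in the labels says whether a sample came from 1 mouse or a pool. Every difference below is therefore a difference between single arrays, with no replicate check and no p-value, and words such as lower describe these arrays.

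Ribosomal proteins are made in nearly equal amounts and assembled on ribosomal RNA in the nucleolus. Most of their messenger RNAs begin at a cytosine followed by an unbroken run of pyrimidines, the terminal oligopyrimidine (TOP) tract, through which mTOR and the RNA-binding protein LARP1 control their translation and stability. T cells that become activated make many more ribosomes, and resting cells few, which is why these genes are often read as a measure of the capacity to grow. Several members also have roles outside the ribosome, given below with their values.

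Runs of pyrimidines were looked for in windows of 30 bases around the annotated start, though not every member had a long run there. Such windows were available for 43 of the 49 genes, from RefSeq promoters of build GRCm38.p6. Each window is written 5′ to 3′ on the gene's own strand, holds 15 bases before the start and 15 from it, and has its longest run of C and T in capitals. The 8 genes shown were picked by hand, after their values were seen, to set runs of different length beside differences of different size and direction. Runs longer than some of these occur in members not shown, such as Rpl14 with 14 bases and Rpl13a with 13. Where a gene had several starts, the window with the longest run is given.
Rpl7a (chr2:26910792-26910821, plus strand): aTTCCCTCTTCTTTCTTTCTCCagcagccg
Rpl35 (chr2:39005117-39005146, minus strand): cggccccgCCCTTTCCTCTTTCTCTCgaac
Rps6 (chr4:86857353-86857382, minus strand): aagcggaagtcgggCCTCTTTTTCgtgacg
Rpl38 (chr11:114668565-114668594, plus strand): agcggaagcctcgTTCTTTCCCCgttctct
Rpl27a (chr7:109519180-109519209, plus strand): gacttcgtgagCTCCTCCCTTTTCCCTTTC
Rps27l (chr9:66946071-66946100, plus strand): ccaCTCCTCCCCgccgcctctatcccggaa
Rplp0 (chr5:115559452-115559481, plus strand): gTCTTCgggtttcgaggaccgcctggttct
Rps28 (chr17:33824548-33824577, minus strand): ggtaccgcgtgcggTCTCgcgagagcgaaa

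A run of at least 8 C or T bases, in any order and on the gene's own strand, lay in the window of 19 of the 43 members, or 44.2%, against 13.9% of 27025 genes with such a window. The median longest run was 7 bases in the members and 5 in all genes. The pentamer CTTTC, which can lie inside such a run, was found on the gene's strand in 25.6% of the members and 4.56% of all genes, and on the opposite strand in 2.33% and 3.29%. These matches are letters in an annotated window, and no start site was measured here.

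Where 3 intensities of a gene follow each other below, they are those of KO NK1.1+, KO NK1.1− and control cells in that order, and 2 folds after them are those of KO NK1.1+ and then KO NK1.1− cells against control. The brightness of a probe set also depends on its probes, so a gene is compared only with itself across arrays. Of the 49 members, 45 were measured on all 3 arrays, 25 of the large and 20 of the small subunit. Measured means an intensity of at least 10.3, the 95th percentile of 145 probe sets of smell and taste receptors, hair keratin-associated proteins and lens crystallins. The other 4 (Rpl3l, Rps16, Rps27 and Rps4l) were below it on every array. Rpl3l, the muscle form of Rpl3, lay at 5.44, 5.34 and 5.30 in KO NK1.1+, KO NK1.1− and control cells, and Rps4l, a copy of Rps4x, at 6.23, 6.31 and 6.25. The single-symbol probe sets of Rps16 and Rps27, at 5.03 to 5.11 and 7.80 to 7.88, do not settle those genes' levels, because brighter probe sets are annotated with several symbols and were left out. Such probe sets numbered 110, and 28 ribosomal protein symbols, among them Rplp1, Rpl5 and Rpl10, had no other kind.

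**Figure D1:**
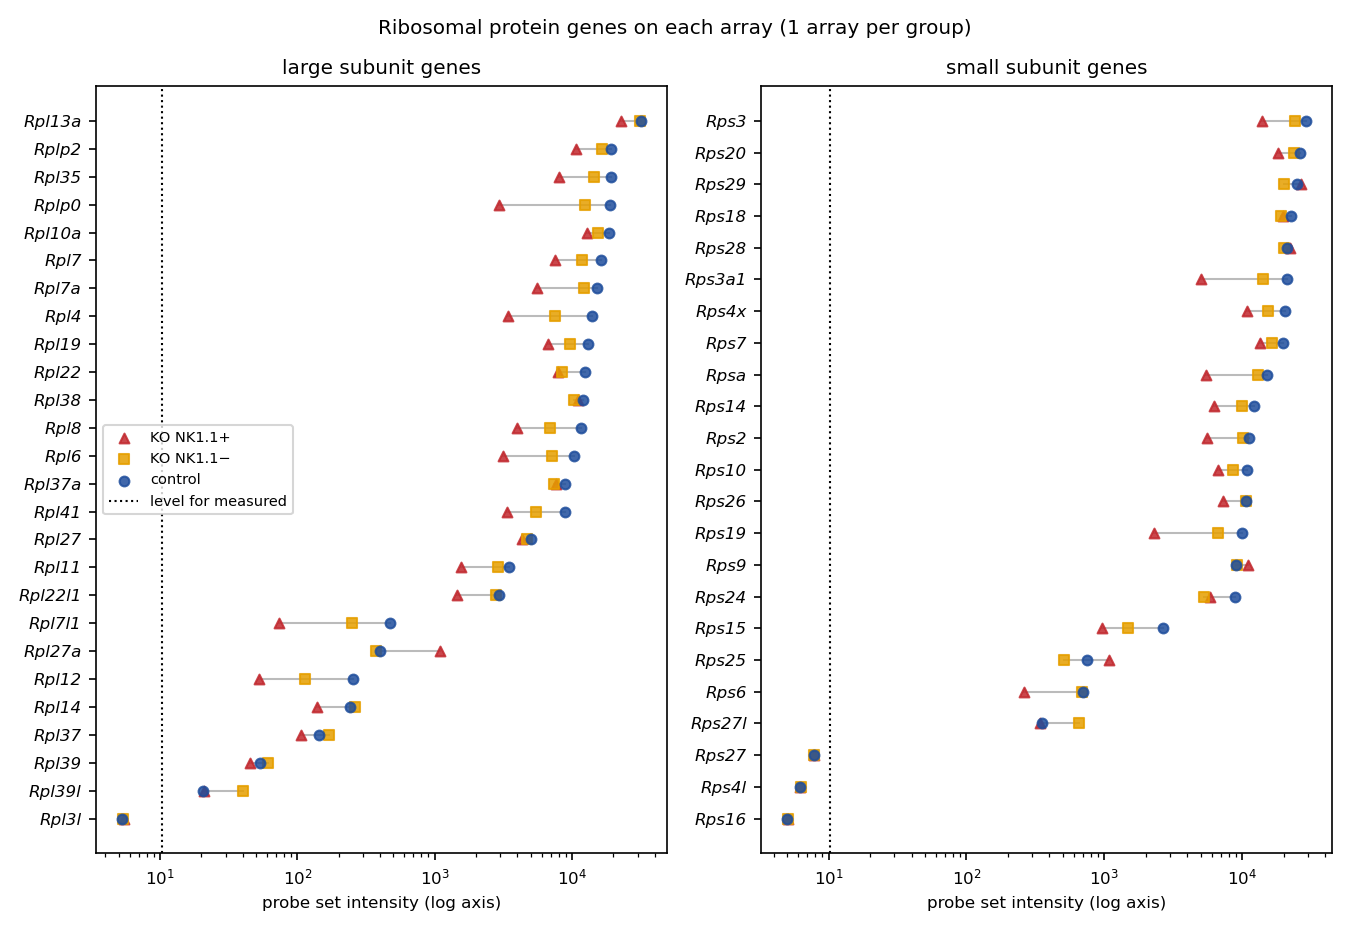
Intensity of each member's probe set on each array (log axis), large subunit on the left and small subunit on the right, ordered by the control value; triangles are KO NK1.1+, squares KO NK1.1−, circles control, and the dotted line is the level for measured, 10.3. Most bright members have the control circle on the right and the NK1.1+ triangle on the left, Rpl27a and Rps25 have the triangle on the right, and Rps27l and Rpl39l have the square on the right.

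Some properties of the arrays bear on every value below. The median intensity of all probe sets was 8.99, 8.24 and 8.18 on the KO NK1.1+, KO NK1.1− and control arrays, and 9770, 9488 and 9384 genes were measured. The 18 hybridisation control probe sets were on average 2.36-fold higher on the KO NK1.1+ array than on the control array, and the 24 poly-A controls 3.13-fold higher. On the KO NK1.1− array the same controls were 1.07-fold and 2.57-fold lower than on the control array. The ratio of the 3′ to the 5′ probe set of Actb, a measure of how far RNA is copied toward its 5′ end, was 81.9 in KO NK1.1+, 12.3 in KO NK1.1− and 6.02 in control cells, and that of Gapdh 10.8, 26.7 and 17.8. The median log2 difference of all measured genes was 0.01 for KO NK1.1− against control, -0.19 for KO NK1.1+ against control and -0.26 between the KO fractions. The brightest Tgfbr2 probe set lay at 1808 in KO NK1.1+, 1271 in KO NK1.1− and 2634 in control cells; where it lies relative to the deleted part is not known here.

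In KO NK1.1− cells ribosomal protein transcripts were slightly and broadly lower than in control cells. Of 45 measured members, 38 were below control, against 48.5% of 9824 measured genes, and the median log2 difference was -0.27 (range -1.16 to 0.96). The difference was small for most: 9 members were lower by at least 1.5-fold, beside 15% of all genes, and 2 were higher by as much, beside 16.3%. At 2-fold, 1 member was lower (all genes 5.58%) and none was higher (all genes 8.13%). The summed intensity of all members, in which bright probe sets weigh most, was 80.3% of control. Sums were taken in the deposited scaling only.

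In KO NK1.1+ cells the difference was larger. Of 45 members, 39 were below control (58.8% of 10358 genes), with a median of -0.84 (range -2.69 to 1.44) and a summed intensity of 59.5% of control. At 1.5-fold 27 members were lower (all genes 35.6%) and 1 was higher (all genes 17.1%), and at 2-fold 19 were lower (23.3%) and 1 was higher (9.9%). The size depended on how the arrays were scaled. When each array was centred on its own median over genes measured on all arrays, the members' median was -0.40, with 32 below control, 17 lower and 3 higher at 1.5-fold, and all genes went from 3685 lower and 1769 higher to 2319 and 3290, with a median of 0.25. When the differences were centred on their median over measured genes, a setting chosen after seeing the data, the members' median was -0.65, with 24 lower and 2 higher, and all genes stood at 3067 and 2294. Quantile normalization gave -0.63, with 23 members lower and 2 higher, beside 3008 and 2227 of all genes. With each array centred, 7 members that were below control, each by under 0.45 on the log2 scale, lay above it (Rpl27, Rpl37, Rpl37a, Rpl38, Rpl39, Rps18 and Rps27l).

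Between the KO fractions, 36 of 45 members were below in NK1.1+ cells (62.8% of 10345 genes), with a median of -0.64. At 1.5-fold 25 were lower (all genes 36.3%) and 2 were higher (12.8%), and at 2-fold 10 were lower (21.7%) and 2 were higher (6.5%). Centring each array gave a median of -0.16, with 28 members below, 10 lower and 7 higher at 1.5-fold, while all genes went from 3753 lower and 1322 higher to 2038 and 3006, with a median of 0.22. Centring the differences gave -0.38, with 16 members lower and 3 higher, and 2711 and 2041 of all genes, and quantile normalization -0.53, with 21 and 2, and 2888 and 1781 of all genes. The 3 comparisons use the same 3 arrays, each in 2 of them, so they are not independent of each other. In the deposited values of 30 of the 45 members control was highest and KO NK1.1+ lowest, an order found in 31.6% of 8661 genes measured on all arrays.

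Other bright genes had medians closer to 0 in the deposited scaling. The tenth of genes with the highest mean intensity, at least 1173, held 1055 genes, 35 of them members. The other 1020 had medians of 0.05 for KO NK1.1− against control, -0.04 for KO NK1.1+ against control and -0.14 between the fractions, and 8.43%, 22% and 22.9% of them were lower by 1.5-fold. Among the members the 17 with a mean above 10000 had medians of -0.26 and -0.84 against control in NK1.1− and KO NK1.1+ cells, and the 18 between 1000 and 10000 had -0.39 and -0.99. The 10 dimmer members were mixed, with medians of 0.04 and -0.34.

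**Figure D2:**
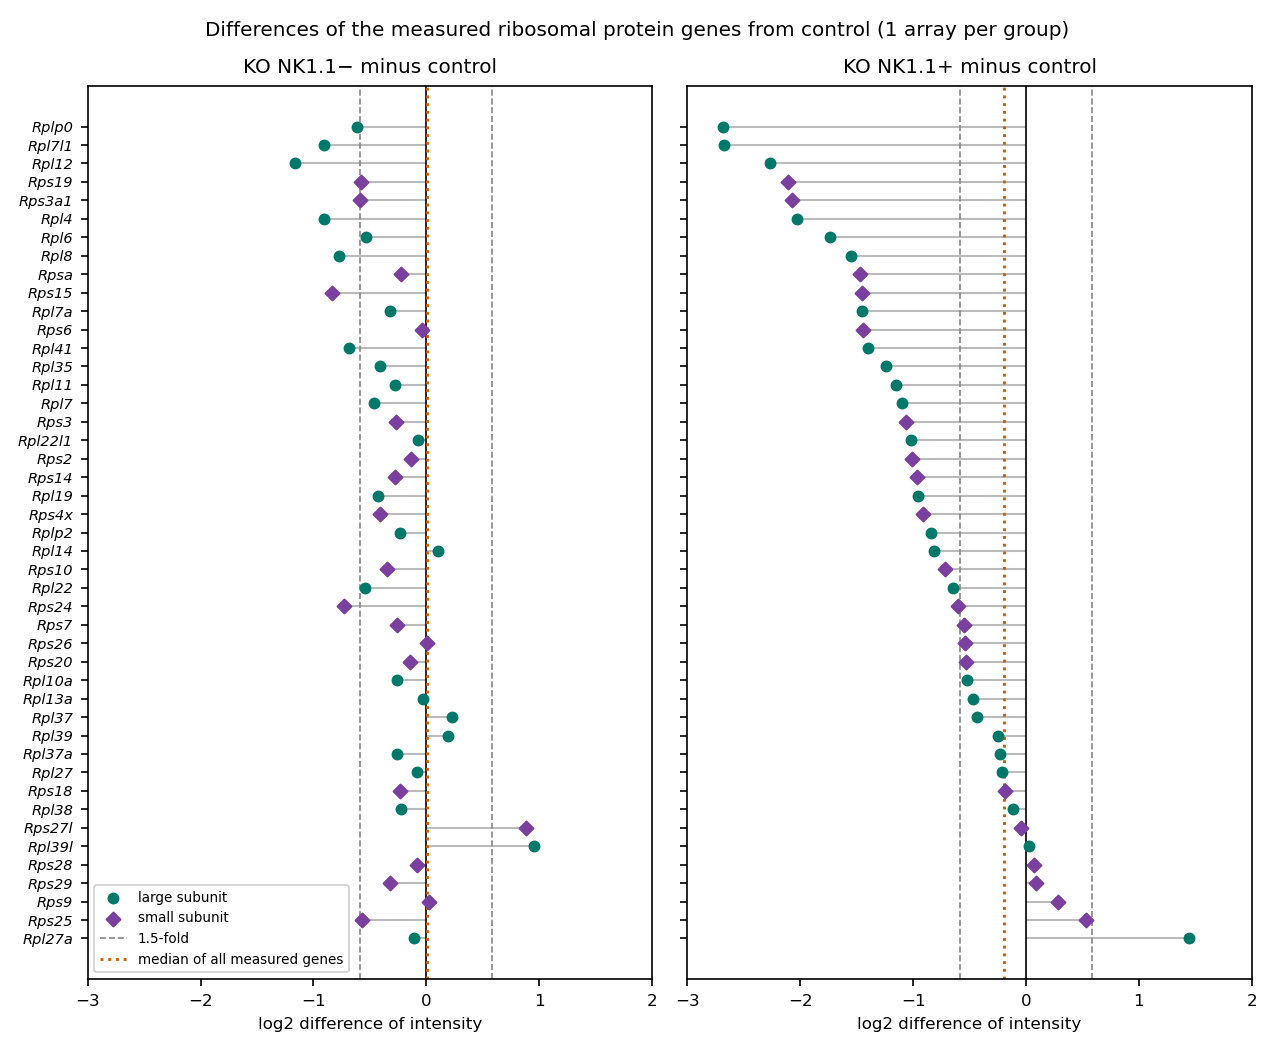
Log2 difference of each of the 45 measured members from control in KO NK1.1− cells (left) and KO NK1.1+ cells (right), ordered by the right panel; circles are large and diamonds small subunit genes, dashed lines mark 1.5-fold and the dotted line the median of all measured genes. In the left panel most members lie between 0 and -0.91, with Rpl12 below and Rps27l and Rpl39l well above; in the right panel they spread from -2.69 for Rplp0 to 1.44 for Rpl27a.

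The stalk of the large subunit recruits elongation factors, and its base protein Rplp0 showed the largest fold among the members. Rplp0 lay at 2927 in KO NK1.1+, 12375 in KO NK1.1− and 18873 in control cells, so it was 6.45-fold lower than control in the first and 1.53-fold lower in the second. Rplp2, which pairs with Rplp1 on the stalk, lay at 10751, 16381 and 19276, only 1.79-fold and 1.18-fold lower. Rplp0 and Rplp2, each read by 1 probe set, thus shared a direction but not a size. A probe set with Rplp1 among its symbols gave log2 differences from control of -1.44 in KO NK1.1+ and -0.44 in KO NK1.1− cells. Rpl12, which binds at the foot of the stalk, was a dim probe set with 52.6, 113 and 253, or 4.81-fold and 2.24-fold lower, and was the 1 member past 2-fold in KO NK1.1− cells. Brighter probe sets with Rpl12 among several symbols gave log2 differences of -2.54 and -1.83 in KO NK1.1+ cells. In KO NK1.1− cells they gave -0.90 and -0.77, short of 2-fold.

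In 18 of the 25 measured large subunit genes the highest deposited value was in control and the lowest in KO NK1.1+ cells. Of 8661 genes measured on all arrays, 31.6% had this order. With each array centred on its median, Rpl10a, Rpl13a, Rpl22 and Rpl27 lost the order. The 6 genes described next were among the 18 and kept it. Rpl4, which lines the exit tunnel of the growing peptide, lay at 3434 in KO NK1.1+, 7471 in KO NK1.1− and 14031 in control cells, 4.09-fold and 1.88-fold lower. Rpl8, close to the peptidyl transferase centre, lay at 3997, 6867 and 11702, 2.93-fold and 1.70-fold lower. Rpl4 and Rpl8 were among the members lower by 1.5-fold in both KO fractions. Rpl6, with 3124, 7188 and 10401, was 3.33-fold lower in KO NK1.1+ cells and 1.45-fold in KO NK1.1− cells. Rpl7a, with 5564, 12200 and 15212, was 2.73-fold and 1.25-fold lower. Rpl7 lay at 7566, 11775 and 16182, 2.14-fold and 1.37-fold lower, and Rpl35 at 8080, 14379 and 19139, 2.37-fold and 1.33-fold lower. That both KO arrays lay below control in these 6 genes, the NK1.1+ array by more, follows from the order by which they were grouped.

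By their brightest probe sets, the members with roles outside the ribosome described here were below control in both KO fractions, to different extents. Rpl11, which with Rpl5 binds Mdm2 and stabilises p53 when ribosome assembly fails, lay at 1558, 2866 and 3463 in KO NK1.1+, KO NK1.1− and control cells, 2.22-fold and 1.21-fold lower. Rpl22, needed for the development of αβ T cells, lay at 7909, 8496 and 12349; both KO arrays were close to each other and 1.56-fold and 1.45-fold lower than control. Rpl22l1, its paralogue, had another pattern: 1448, 2789 and 2937, with KO NK1.1− within 1.05-fold of control and KO NK1.1+ 2.03-fold lower. That contrast depends on the probe set read: another of Rpl22 lay at 77.3, 327 and 559, a log2 difference of -2.85 from control in KO NK1.1+ cells, and the mean of all its probe sets gave -1.51 against control and -0.78 between the fractions. Rpl13a, which can leave the ribosome and silence inflammatory messenger RNAs in myeloid cells, lay at 22831, 31040 and 31613, 1.38-fold and 1.02-fold lower. Its other probe sets gave log2 differences of -2.32, -0.66 and -0.57 in KO NK1.1+ cells. In KO NK1.1− cells the same probe sets gave -0.88, 0.38 and -0.11, so they disagreed in sign. Rpl38, which helps translate Hox messenger RNAs in embryos, differed little, at 11138, 10324 and 12074, and in KO NK1.1+ cells was above control by 0.08 on the log2 scale after the differences were centred and by 0.33 after each array was centred.

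In the small subunit 12 of the 20 measured genes had control highest and KO NK1.1+ lowest in the deposited values, beside 31.6% of 8661 genes. With each array centred on its median, Rps10, Rps20 and Rps7 lost this order and Rps26 gained it. Rps19, the gene most often mutated in Diamond-Blackfan anaemia, lay at 2311 in KO NK1.1+, 6681 in KO NK1.1− and 9983 in control cells, 4.32-fold and 1.49-fold lower. Rps3a1 lay at 5012, 14066 and 21126, 4.22-fold and 1.5-fold lower. Rpsa, which also serves as a laminin receptor at the cell surface, lay at 5461, 12977 and 15177, 2.78-fold and 1.17-fold lower. In each of these the KO NK1.1− array stood closer to control than to KO NK1.1+.

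Rps6, the substrate of S6 kinase whose phosphorylation is used as a read-out of mTOR, was a fairly dim probe set at 260, 689 and 706. It was 2.72-fold lower than control in KO NK1.1+ cells, and KO NK1.1− cells were within 1.02-fold of control. Brighter probe sets annotated with both Rps6 and a pseudogene did not show this size; 1 lay at 20871, 22942 and 23414, a log2 difference of -0.17 in KO NK1.1+ cells, and their values ran from -0.56 to 0.06. Rps3, which sits where messenger RNA enters and also binds NF-κB, lay at 13910, 24134 and 29088, 2.09-fold and 1.21-fold lower. A dimmer probe set of Rps3 lay at 864, 1376 and 955, with log2 differences of -0.14 in KO NK1.1+ and 0.53 in KO NK1.1− cells. Rps14, whose loss underlies the anaemia of the 5q deletion syndrome, lay at 6215, 10044 and 12138, 1.95-fold and 1.21-fold lower. Rps2, with 5564, 10200 and 11192, was 2.01-fold and 1.1-fold lower. Rps15 was one of the members lower in both fractions, at 967, 1490 and 2650, 2.74-fold and 1.78-fold.

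The 11 measured members not named with intensities lay between these extremes (Rpl10a, Rpl19, Rpl27, Rpl37a, Rps10, Rps18, Rps20, Rps24, Rps26, Rps4x and Rps7). Their log2 differences ran from -0.96 for Rpl19 to -0.19 for Rps18 in KO NK1.1+ cells. In KO NK1.1− cells Rps24 was the lowest of them, at -0.73, and Rps26 was above control by under 0.01.

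A few members did not follow. Rpl27a lay at 1089 in KO NK1.1+, 371 in KO NK1.1− and 401 in control cells, and was 2.72-fold higher than control in KO NK1.1+ cells. Rps25, which some viral and cellular messenger RNAs need for initiation without a cap, lay at 1090, 506 and 753, 1.45-fold higher than control in KO NK1.1+ and 1.49-fold lower in KO NK1.1− cells. Both genes rest on 1 measured probe set, and brighter probe sets annotated with them and other symbols did not show a higher value. One with Rpl27a among its symbols lay at 8919, 8849 and 9531, a log2 difference of -0.10 in KO NK1.1+ cells, and 1 with Rps25 lay at 3848, 2739 and 4173, a log2 difference of -0.12. Rps28 (22297, 20028 and 21175) and Rps29 (26861, 20107 and 25183), small proteins of the head of the subunit and among the brightest members, were within 1.07-fold of control in KO NK1.1+ cells. Rps9 lay at 10940, 9123 and 8985, 1.22-fold higher in KO NK1.1+ cells. In these 5 members the KO NK1.1+ array was the highest.

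Paralogues that stand in for a core protein in particular tissues gave the 2 members higher by 1.5-fold in KO NK1.1− cells. Rps27l, a paralogue of Rps27 that p53 induces, lay at 342 in KO NK1.1+, 652 in KO NK1.1− and 353 in control cells, so KO NK1.1− cells were 1.85-fold higher than control and KO NK1.1+ cells within 1.03-fold. All 3 probe sets of Rps27l showed this, with log2 differences of 0.88, 0.92 and 1.01 in KO NK1.1− cells. Rpl39l, the testis-enriched paralogue of Rpl39, lay at 21.0, 39.9 and 20.6, 1.94-fold higher in KO NK1.1− cells, from 1 dim probe set. Rpl39 itself lay at 45.4, 61.6 and 53.9, a 1.14-fold difference in the same direction. Rpl37 (107, 169 and 144) and Rpl14 (138, 262 and 243) were also highest in KO NK1.1− cells, by 1.17-fold and 1.08-fold over control. The probe sets of Rpl39, Rpl37 and Rpl14 were dim, and brighter ones with several symbols mostly did not show a higher value in KO NK1.1− cells. Those with Rpl14 gave log2 differences from -0.47 to -0.33, that with Rpl39 gave -0.02, and those with Rpl37 gave 0.12 and -0.11. Rpl7l1, a nucleolar relative of Rpl7, was far below control: 73.6, 252 and 471, or 6.40-fold and 1.87-fold lower, while Rpl7 was 2.14-fold and 1.37-fold lower. Its 3 probe sets were close, with log2 differences of -2.68, -2.58 and -2.22 in KO NK1.1+ cells.

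Large and small subunit genes had nearly the same median in KO NK1.1− cells, -0.27 for both. In KO NK1.1+ cells the median was -0.96 for the 25 large and -0.66 for the 20 small subunit genes, a difference of -0.30, and between the KO fractions -0.71 and -0.52, a difference of -0.19. At 2-fold in KO NK1.1+ cells 12 large and 7 small subunit genes were lower than control. The summed intensity, in which bright probe sets weigh most, was 52.1% of control for the large and 66.0% for the small subunit in KO NK1.1+ cells, and 77.4% and 82.8% in KO NK1.1− cells. This difference between subunits depended on which probe sets were read: with the probe sets whose identifier has no letter suffix, 21 members, the large subunit median was above the small one by 0.50 in KO NK1.1+ cells, the opposite direction, and by 0.21 in KO NK1.1− cells.

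Several probe sets of the same gene showed how far its value depended on the probe set read. They were read on the same arrays, so their spread does not measure variation between samples. Among the 20 members with at least 2 measured probe sets, the pooled SD of the log2 difference within a gene was 0.44 for KO NK1.1− against control and 0.69 for KO NK1.1+ against control, beside 0.46 and 0.89 over all such genes. Against control in KO NK1.1+ cells, the probe sets of 8 members spanned more than 1 log2 unit and those of 6 disagreed in sign. Rps9 is the widest case: its brightest probe set gave 0.28 and its others -1.99 and -3.17. The brightest probe set of Rpl41, which encodes the shortest ribosomal protein, lay at 3352, 5493 and 8827. Its probe sets gave log2 differences of -1.40, -1.45, 0.43 and 0.31, and the 3 brightest of Rps18 gave -0.19, -1.16 and -1.46. So the listing of Rps9 among members that did not follow holds for 1 of its 3 probe sets.

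By type, the 38 measured probe sets ending in _x_at, which can also bind related transcripts such as processed pseudogenes, had a median of -0.55 in KO NK1.1+ cells, the 28 ending in _a_at -1.05 and the 23 with no letter suffix -1.07. The same 3 medians were -0.24, -0.27 and -0.49 in KO NK1.1− cells. Of the members, 15 were read by an _x_at probe set. The part of shared or pseudogene signal in these values was not tested. Of the 110 probe sets annotated with a ribosomal protein and another symbol, 104 were measured in both comparisons with control. Of these, 93 were below control in KO NK1.1− cells (median -0.25) and 90 in KO NK1.1+ cells (median -0.55). Among all measured genes 48.5% and 58.8% were below control, with medians of 0.01 and -0.19.

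**Figure D3:**
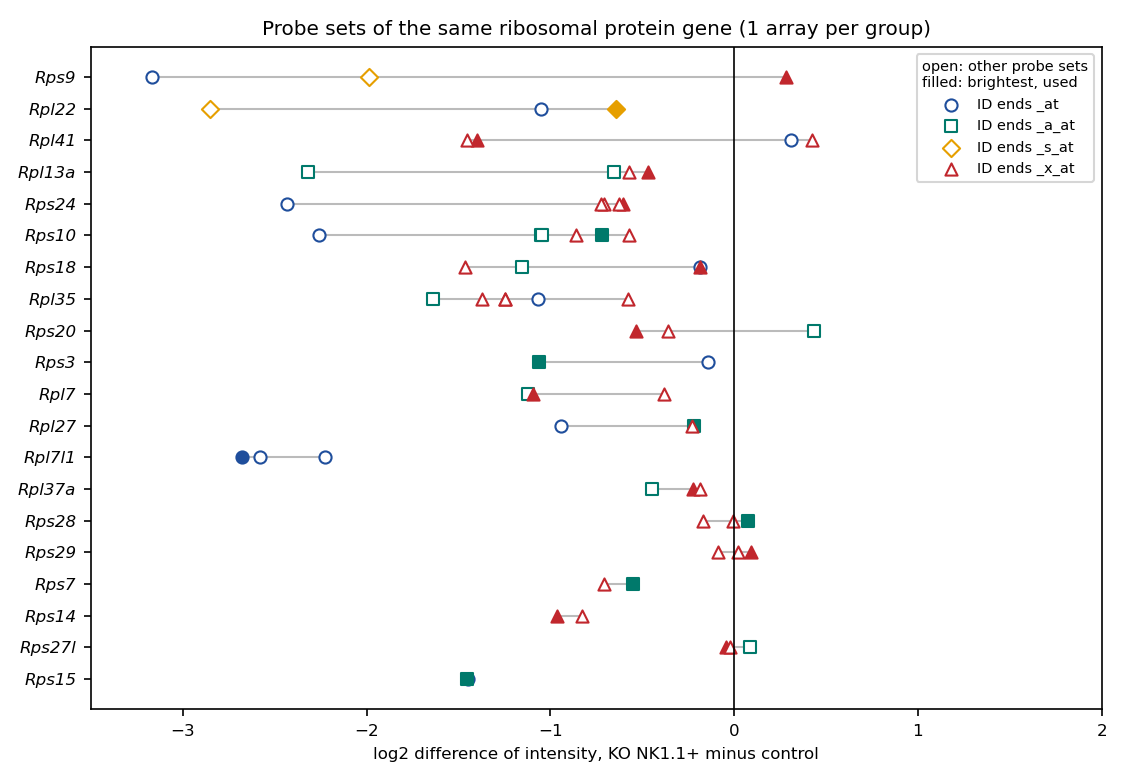
Log2 difference between KO NK1.1+ and control cells for every measured probe set of the 20 members with at least 2 of them, ordered by their range; filled symbols are the brightest probe sets, used as the gene's value, and the symbol shape and colour give the ending of the probe set identifier. Rps15, Rps27l, Rps14 and Rps7 have close probe sets, while Rps9 spans -3.17 to 0.28.

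The members with a run of at least 8 pyrimidines in the window around the annotated start did not have the lower median. A run could lie anywhere in the window: that of Rpl4 lies before the start and that of Rpl39 after it. The split is therefore not one by TOP tract. The 18 measured members with such a run had medians of -0.17 in KO NK1.1− and -0.66 in KO NK1.1+ cells, and the 22 without one had -0.34 and -1.04. Rpl7a, with a run of 21 bases, was 2.73-fold lower in KO NK1.1+ cells and Rpl27a, with 19, was 2.72-fold higher. Rplp0, whose longest run in the window printed above is 5 bases, had the largest fold among the members. Array values give transcript levels and not translation.

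Genes whose products work with the ribosome were read beside the members, by lists chosen with earlier results of these data known. For the counts of lists below, 15% of all measured genes were lower and 16.3% higher by 1.5-fold in KO NK1.1− cells, and 35.6% and 17.1% in KO NK1.1+ cells. The 19 measured other TOP and ribosome-bound genes had medians of -0.29 in KO NK1.1− and -1.03 in KO NK1.1+ cells; 4 and 13 were lower than control by 1.5-fold, and none was higher. Eef2, the factor that moves the ribosome along the messenger RNA, lay at 1109, 4688 and 9413 in KO NK1.1+, KO NK1.1− and control cells. Eif3l and Eif3h, subunits of the initiation factor that binds the small subunit, lay at 229, 897 and 1425 and at 1240, 4454 and 4952. These genes were named for their large differences, and their values keep the order of most members. Eif3k, Nap1l1, Btf3, Tpt1, Eef1b2 and Eif3f of the same list did not keep it. Btf3, for one, lay at 1803, 1699 and 1244. The 26 initiation and termination factors had medians of -0.23 and -0.88, with 3 (11.5%) and 19 (73.1%) lower and 1 and 1 higher. The share lower in KO NK1.1− cells was thus below that of all genes. Eif2b1, a subunit of the factor that recharges eIF2 with GTP, lay at 17.2, 210 and 259.

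Ribosome assembly factors and RNA polymerase I genes differed most among these lists. All 45 measured genes were below control in both KO fractions, with medians of -0.56 in KO NK1.1− and -1.66 in KO NK1.1+ cells, and 20 and 38 of them were lower by 1.5-fold. Polr1a, the largest subunit of the polymerase that makes ribosomal RNA, lay at 11.9, 65.6 and 139. Nob1, the nuclease that completes the RNA of the small subunit, lay at 18.8, 78.6 and 193, and Nop16 at 15.8, 24.5 and 68.5. Of the 22 measured genes of mTOR, S6 kinase and Myc control in KO NK1.1− cells, 5 (22.7%) were lower and 3 (13.6%) higher. Of 23 in KO NK1.1+ cells, 9 (39.1%) were lower and 5 (21.7%) higher, near the 35.6% and 17.1% of all genes. Centring each array made the latter 5 lower and 7 higher, beside 2319 and 3290 of 10358 genes. Myc, which drives transcription of ribosome genes, lay at 13.9, 45.9 and 120, and Eif4ebp1, an inhibitor of cap-dependent initiation that mTOR inactivates, at 74.3, 29.6 and 25.0.

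Proteins of the mitochondrial ribosome, which translates the messenger RNAs of mitochondrial DNA, are encoded by other nuclear genes. The 71 measured ones had a median of 0.15 in KO NK1.1− cells, with 3 lower and 7 higher by 1.5-fold, and of -0.68 in KO NK1.1+ cells, with 40 lower and 2 higher. Between the KO fractions the median was -0.91, with 47 (66.2%) lower and 1 higher, beside 36.3% and 12.8% of all genes. Mrps5 lay at 11.9, 48.8 and 83.9 and Mrps7 at 21.4, 96.0 and 136. The 8 measured housekeeping genes had a median of 0.13 in KO NK1.1− cells, with none past 1.5-fold, and of -0.94 in KO NK1.1+ cells, with 5 lower; Sdha, a subunit of succinate dehydrogenase, lay at 1137, 3157 and 4424. In KO NK1.1− cells the medians of both lists were above 0 and that of the members below, also under both kinds of centring. After each array was centred, the KO NK1.1+ medians were -0.23 for the mitochondrial ribosome, -0.50 for housekeeping genes, -0.59 for the other TOP genes, -0.44 for the initiation and termination factors and -1.21 for ribosome assembly, where 41 of 45 genes were below control.

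**Figure D4:**
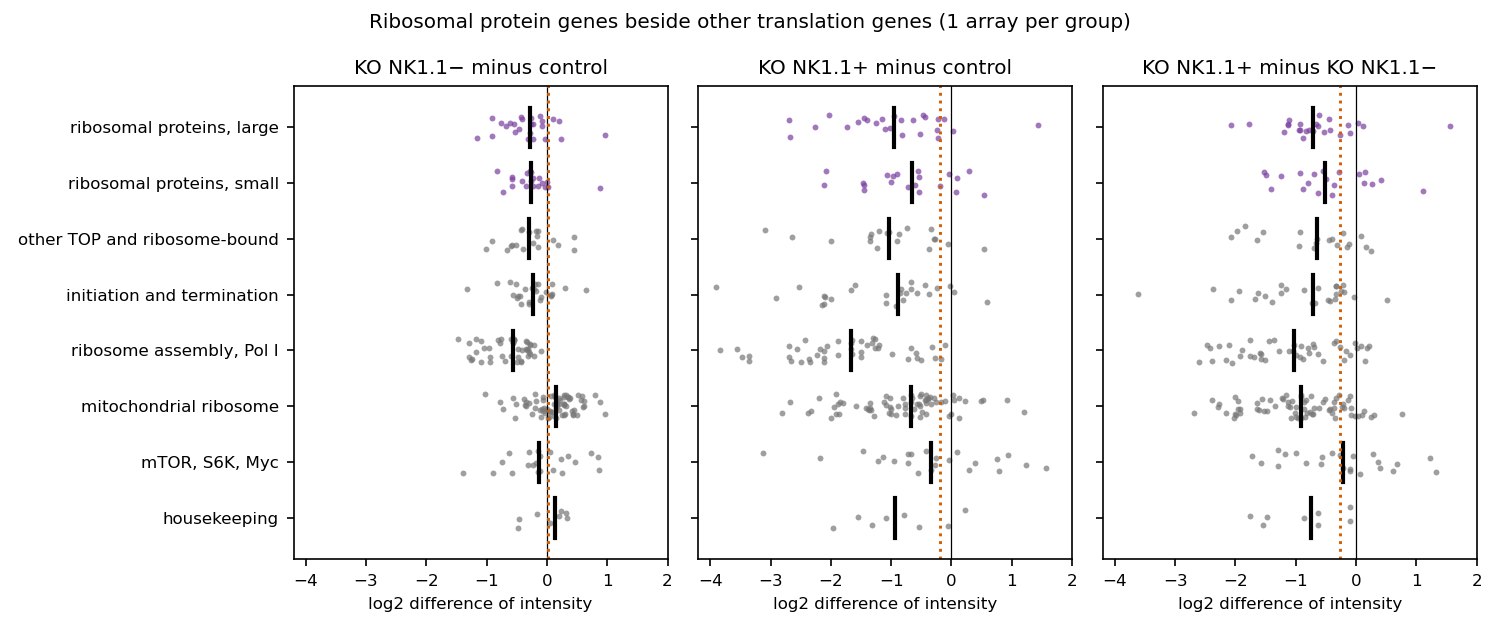
Log2 differences of single genes (points) and their median (bar) for large and small subunit ribosomal protein genes (purple) and other lists (grey) in the 3 comparisons; the dotted line is the median of all measured genes and vertical jitter has no meaning. Ribosome assembly genes lie lowest, with medians of -0.56 and -1.66 against control, and the mitochondrial ribosome lies at 0.15 in KO NK1.1− cells and -0.68 in KO NK1.1+ cells.

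Markers of cell types also differed between these arrays. All 10 measured CD8 T cell markers were above the level on every array, and their summed intensity was 4676 in KO NK1.1+, 9925 in KO NK1.1− and 14509 in control cells; 9 of 10 were lower by 1.5-fold in KO NK1.1+ and 4 of 10 in KO NK1.1− cells. Cd5 and Cd6, surface brakes on T cell receptor signals, lay at 254, 785 and 1815 and at 136, 359 and 785. Of 13 monocyte and macrophage markers on the array, 10, 8 and 6 were measured, with sums of 33591, 6235 and 8045; Cd14, Itgam and C1qa were below the level on all arrays, while Csf1r, the receptor that defines the lineage, lay at 7666, 54.5 and 30.5. Against control these markers had a median log2 difference of 3.29 in KO NK1.1+ cells, where 8 of 10 were higher by 1.5-fold, and of 0.57 in KO NK1.1− cells, where 4 of 8 were higher and none was lower. Ctss, a lysosomal protease also made by other immune cells, lay at 9587, 5289 and 7510, and carries most of the KO NK1.1− and control sums. Of 8 NK cell markers, 7, 6 and 6 were measured, with sums of 16494, 7878 and 4366 and Ncr1 below the level throughout. Most of each sum is Klrd1, at 11874, 5403 and 3687. Against control the NK cell markers had median log2 differences of 4.66 in KO NK1.1+ and 1.55 in KO NK1.1− cells. Eomes, at 734, 2085 and 593, was highest in KO NK1.1− cells. Of 10 B and plasma cell markers, 5, 5 and 7 were measured, with sums of 2666, 518 and 417 and Cd79a, Pax5 and Vpreb3 below the level. Most of the KO NK1.1+ sum is Jchain, the joining chain of secreted antibodies, at 2282, 16.0 and 15.9, and most of the KO NK1.1− sum is Cd22, at 182, 359 and 82.7. The list's median in KO NK1.1+ cells was -0.03, and Cd79b (24.5, 26.0 and 53.7) and Ms4a1 (108, 76.7 and 212) were lower than control in both fractions. Of 8 granulocyte markers, 5, 4 and 5 were measured, with sums of 491, 276 and 337 and Mpo, Elane and Csf3r below the level, and of 4 erythroid markers 1 was measured, with sums of 55.7, 25.6 and 74.0 and Hba-a1, Alas2 and Klf1 below the level. The part of these cells, of the control probe sets and of the 3′ to 5′ ratios in the members' differences was not tested. In bulk RNA, fewer cells of a type and less RNA per cell cannot be told apart.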

How the data were processed

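The deposited table holds linear intensity values per probe set, made by the authors with GCRMA 1.1.3 per the submitters' processing notes; GCRMA corrects background by probe sequence and normalizes arrays, with settings and genome build not given in the sources used here. Of 45101 probe sets, 34945 had 1 symbol in GEO's platform annotation, 932 several and 9160 none, and 64 were array controls; only those with 1 were used. Values below the level of 10.3 were raised to it, log2 was taken, and arrays were subtracted, with calls at 1.5-fold and 2-fold (python 3.11.15, pandas 2.3.3, numpy 2.4.6). The scripts were tested on simulated data. With 1 array per group no test was made, and their number limits precision. Members and lists were chosen with earlier results of these data known. Members were named by rule: the 5 most extreme each way in each comparison, those past 2-fold, paralogues, stalk proteins and genes with known roles; Rps18 was named after its probe sets were seen. Of most other lists, 1 to 4 genes with the largest differences were named. Alternatives were an offset of 32, the mean of all probe sets, probe sets without letter suffix, quantile normalization, centring each array on its median, a level at the upper quartile of the values, and no paralogues; centring the differences was added after seeing the data.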

Additional observations from a re-analysis of the deposited data

How the results depend on the processing

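The median of the members stayed below 0 in every comparison under 7 alternative settings and 1 added after seeing the data, and the subunit difference did not keep its direction. With probe sets without letter suffix the medians were -0.42 for KO NK1.1− against control (21 members), -1.05 for KO NK1.1+ against control and -0.85 between the fractions. In the last pair of comparisons 14 and 12 members were lower by 1.5-fold, beside 3352 of 8849 and 3276 of 8797 measured genes. Fewer members were read. Quantile normalization gave -0.17, -0.63 and -0.53. Centring each array gave -0.40 for KO NK1.1+ against control with 17 lower, beside 2319 of 10358 genes. Between the fractions it gave -0.16 with 10 lower, beside 2038 of 10345 genes, and it left the first comparison at -0.30. Centring the differences, the added alternative, gave -0.65 and -0.38, with 16 lower in the latter beside 2711 of 10345 genes, and left the first at -0.28. The difference of the large minus the small subunit median, -0.0074 in KO NK1.1− cells, was 0.0032 when all probe sets were averaged and 0.21 without letter suffix. In KO NK1.1+ cells it was 0.50 without letter suffix and -0.18 without paralogues, and between the fractions 0.18 without letter suffix; beyond the probe sets and members left out, the cause was not tested. Rpl41 in KO NK1.1+ cells was 0.31 against control and 0.45 between the fractions without letter suffix, from another probe set. Of the values of single genes, 14 moved by over 0.5 on the log2 scale with the mean of all probe sets, 8 without letter suffix beside the 2 of Rpl41, and 2 with the offset, and none under the other alternatives, although centring each array raised every value of KO NK1.1+ cells by an amount under that limit. No paired analysis was possible because each group has 1 array, and leaving out a replicate was not possible either. Dim probe sets limit what can be said of Rpl39l, Rpl39 and Rpl12.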
